A study of Mus with 6 samples.

Results

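The Janus kinases (Jak1, Jak2, Jak3 and Tyk2) and the transcription factors STAT3 to STAT6 (Stat3, Stat4, Stat5a, Stat5b and Stat6) were taken by symbol from the table of gene expression, giving 9 of its 10995 protein-coding genes. All 9 were listed and all 9 passed the filter of a mean of at least 1 FPKM (fragments scaled to transcript length and to the fragments of each library) and were tested together with the other genes that passed, 8816 in all. The file does not name its unit, and its values were taken to be FPKM from the tools the study used. The cells were naive CD4+ T cells from the spleen of wild-type mice. All of them were stimulated for 3 days with IL-2 (100 U/mL) and with antibodies against CD28 (2 μg/mL) and CD3 (5 μg/mL). A neutralizing antibody to VEGF-B, a growth factor of the VEGF family, was present at 1 μg/mL in 3 libraries, and normal goat IgG at 1 μg/mL in the other 3. The labels do not say whether the libraries of a group came from separate mice or cultures, so the p-values measure the spread between these libraries, which may be technical. IL-2 itself, a ligand of this pathway, was thus supplied to both groups.

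JAK kinases are tyrosine kinases bound to the tails of cytokine receptors. When a cytokine brings the receptor chains together, the kinases phosphorylate each other and the receptor, STAT proteins dock and are phosphorylated in turn, and STAT dimers enter the nucleus and bind DNA. In CD4+ T cells, IL-2 signals through JAK1 and JAK3 to STAT5, IL-4 through JAK1 and JAK3 to STAT6, IL-12 through JAK2 and TYK2 to STAT4, and IL-6 and IL-21 mainly to STAT3. These routes are known for T cell growth and survival and for the choice between helper T cell fates. RNA-Seq measures the transcripts of these proteins, not their phosphorylation.

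Members of both families were abundant transcripts in these cells. Their levels lay above the 90th percentile of all genes tested for 6 of the 9 genes. Stat3 and Jak2 were the highest in both groups. Tyk2 was the lowest, at the 20.9th percentile, and Stat4 was the next lowest at 70.6. With IgG the order by mean FPKM, a scale that takes transcript length into account, was Stat3, Jak2, Stat5b, Jak1, Jak3, Stat6, Stat5a, Stat4 and Tyk2. Of these neighbors, Jak3 and Stat6 alone had ranges that overlapped. With anti–VEGF-B, Jak1 stood before Stat5b and Stat6 before Jak3, and both of these pairs had overlapping ranges.

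**Figure D1:**
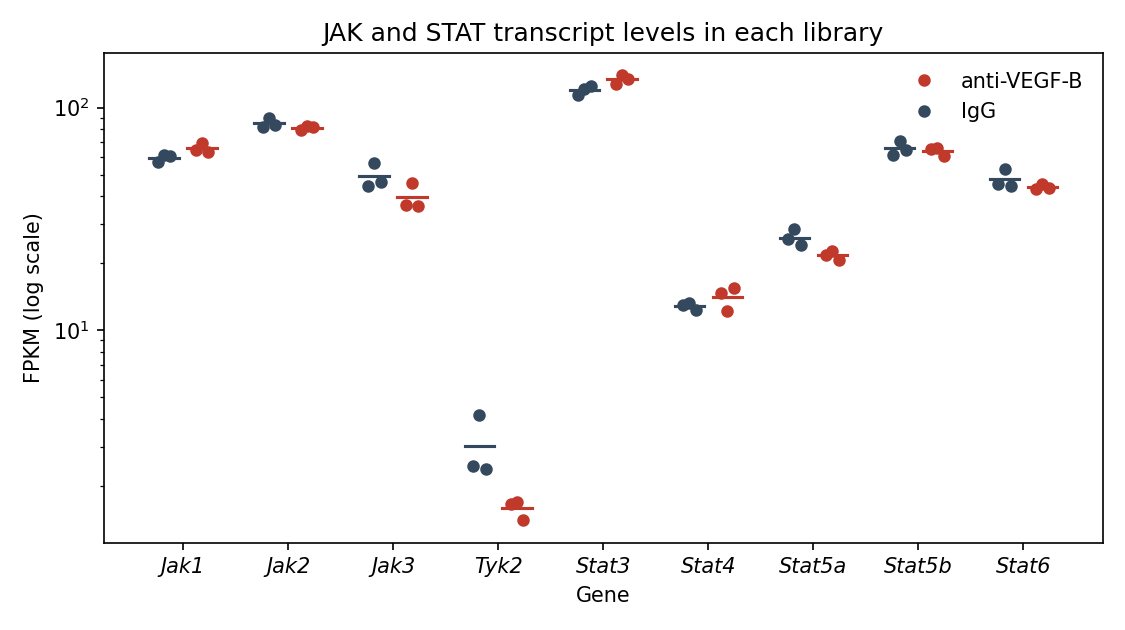
FPKM of the 4 JAK kinases and of STAT3 to STAT6 in each of the 6 libraries, on a log axis, with the mean of each group of 3 as a bar. Stat3 was highest, at 113.5 to 139.7 FPKM, and Tyk2 lowest, at 1.40 to 4.17 FPKM, with its 3 anti–VEGF-B libraries below its 3 IgG libraries.

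Tyk2 was lower with anti–VEGF-B, and the other 8 genes did not pass the test, with log2 fold changes between -0.31 and 0.16. By limma on log2(FPKM + 1), with Benjamini-Hochberg adjustment over the 8816 genes tested, 1 of the 9 genes (Tyk2) was lower at an adjusted p under 0.05, against 23.8% of all genes tested. Of the 9 genes 0 were higher, against 4.87% of all genes. At an unadjusted p under 0.05, 3 of the 9 were lower and 0 were higher. The share of all genes at this unadjusted cut was not taken, so this count is not read as a result about the 9 genes. The groups did not overlap for 4 of the 9 genes (Jak1, Tyk2, Stat3 and Stat5a), against 49.0% of all genes tested. The median log2 fold change was -0.06 over the 9 genes and -0.15 over all genes, and 6 of the 9 lay above the median of all genes. How the libraries were scaled to each other changed these calls. When each library was centred on its median, the median of all genes moved to 0.05, 0 of the 9 genes were lower and 2 (Jak1 and Stat3) were higher. Of all 8816 genes tested, 807 were lower and 1365 higher after this centring.

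JAK1, encoded by Jak1 (ENSMUSG00000028530.14, chr4:101152367-101265282, minus strand, GRCm38), is the kinase shared by most cytokine receptors of T cells, among them the β chain of the IL-2 receptor. Jak1 was at 64.4, 69.2 and 63.5 FPKM with anti–VEGF-B and at 57.1, 60.9 and 60.5 FPKM with IgG. Every anti–VEGF-B library lay above every IgG library. The means were 65.7 ± 3.08 and 59.5 ± 2.08 FPKM (SD, n = 3 each). This gave a log2 fold change of 0.14 (SE 0.07, limma adjusted p = 0.160). After median centring it was 0.34 with a limma adjusted p of 0.0159, against 0.0159 to 0.350 over all 13 alternatives.

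JAK3, encoded by Jak3 (ENSMUSG00000031805.17, chr8:71676296-71690575, plus strand), binds the common γ chain and works beside JAK1 on the receptors of IL-2, IL-4, IL-7 and IL-21. Jak3 was at 36.4, 45.9 and 36.3 FPKM with anti–VEGF-B and at 44.6, 56.5 and 46.4 FPKM with IgG. Replicate 2 was the highest of its group on both sides, and the groups overlapped because anti–VEGF-B replicate 2 exceeded IgG replicate 1. The log2 fold change was -0.31, with an interval (95%) from -0.58 to -0.04 and a limma adjusted p of 0.0763. Without anti–VEGF-B replicate 2 it was -0.42 and passed the threshold (limma adjusted p = 0.0356). Across alternatives its adjusted p was between 0.0174 and 0.451.

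JAK2, encoded by Jak2 (ENSMUSG00000024789.12, chr19:29251828-29313080, plus strand), serves receptors such as the β2 chain of the IL-12 receptor and the IFN-γ receptor. Jak2 was at 79.5, 83.0 and 81.5 FPKM with anti–VEGF-B and at 81.8, 89.7 and 83.8 FPKM with IgG, and the groups overlapped. The log2 fold change was -0.06 with an interval from -0.22 to 0.09 (limma adjusted p = 0.506). After median centring it was 0.14, so its sign depended on the scaling.

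TYK2, encoded by Tyk2 (ENSMUSG00000032175.11, chr9:21104068-21131243, minus strand), binds the β1 chain of the IL-12 receptor and the IFNAR1 chain of the type I interferon receptor. Tyk2 was at 1.66, 1.70 and 1.40 FPKM with anti–VEGF-B and at 2.46, 4.17 and 2.38 FPKM with IgG. The anti–VEGF-B libraries were all below the IgG libraries, and IgG replicate 2 stood well above the other two of its group. The means were 1.59 ± 0.163 and 3.00 ± 1.01 FPKM (SD, n = 3 each), a ratio of 0.528. On the log2(FPKM + 1) scale, which understates the change of a gene this low, Tyk2 had a log2 fold change of -0.60 (SE 0.16, limma adjusted p = 0.0259). Without IgG replicate 2 it was -0.41 and still passed (limma adjusted p = 0.0382). The call was lost without anti–VEGF-B replicate 1 (0.0568), replicate 2 (0.0519) or replicate 3 (0.0849), as well as under median centring (0.0531), quantile normalization (0.0834) and with no moderation of the variance (0.127), all adjusted p-values from limma. The direction was the same in all 12 alternatives in which Tyk2 was tested, with a log2 fold change from -0.84 to -0.36.

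STAT3, encoded by Stat3 (ENSMUSG00000004040.16, chr11:100885098-100939540, minus strand), is activated by IL-6, IL-21 and IL-10 and is needed for Th17 differentiation. Stat3 was at 127.3, 139.7 and 134.3 FPKM with anti–VEGF-B and at 113.5, 121.8 and 124.7 FPKM with IgG. All anti–VEGF-B libraries lay above all IgG libraries. The means were 133.7 ± 6.22 and 120.0 ± 5.81 FPKM (SD, n = 3 each). This gave a log2 fold change of 0.16 with an interval from -0.01 to 0.32 (limma adjusted p = 0.133). After median centring it was 0.36 (limma adjusted p = 0.0202, against 0.0202 to 0.285 over the alternatives).

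STAT5A and STAT5B are close paralogs that carry the IL-2 and IL-7 signals. Stat5a (ENSMUSG00000004043.14, chr11:100859351-100885169, plus strand) was at 21.8, 22.7 and 20.7 FPKM with anti–VEGF-B and at 25.6, 28.5 and 24.1 FPKM with IgG. The groups did not overlap. The log2 fold change was -0.25 (SE 0.09, interval from -0.44 to -0.06), and the limma adjusted p of 0.0548 was just short of the threshold. Over the alternatives the adjusted p ran from 0.0401 to 0.659, and after median centring the log2 fold change was -0.05. Stat5b (ENSMUSG00000020919.11, chr11:100780731-100850724, minus strand) was at 64.9, 65.7 and 60.9 FPKM with anti–VEGF-B and at 61.0, 71.1 and 64.6 FPKM with IgG, with groups that overlapped. Its log2 fold change was -0.04, with an interval from -0.21 to 0.14 (limma adjusted p = 0.749), and the sign turned under median centring (0.17) and without IgG replicate 2 (0.02). Because the paralogs share long stretches of sequence, reads may have been assigned to the wrong one, and each value is less certain than the sum.

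STAT4, encoded by Stat4 (ENSMUSG00000062939.11, chr1:51987148-52107189, plus strand), carries the IL-12 signal for Th1 differentiation. Stat4 was at 14.6, 12.2 and 15.5 FPKM with anti–VEGF-B and at 13.0, 13.3 and 12.3 FPKM with IgG. Anti–VEGF-B replicate 2 was the lowest of all 6 libraries and the other two of that group were the highest. The log2 fold change was 0.12 with an interval from -0.10 to 0.35 (limma adjusted p = 0.368).

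STAT6, encoded by Stat6 (ENSMUSG00000002147.18, chr10:127642986-127660957, plus strand), carries the IL-4 signal for Th2 differentiation. Stat6 was at 43.3, 45.3 and 43.6 FPKM with anti–VEGF-B and at 45.4, 53.2 and 44.3 FPKM with IgG. The groups overlapped, and IgG replicate 2 lay above the rest. The log2 fold change was -0.11 with an interval from -0.30 to 0.09 (limma adjusted p = 0.361), and it was 0.10 after median centring.

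**Figure D2:**
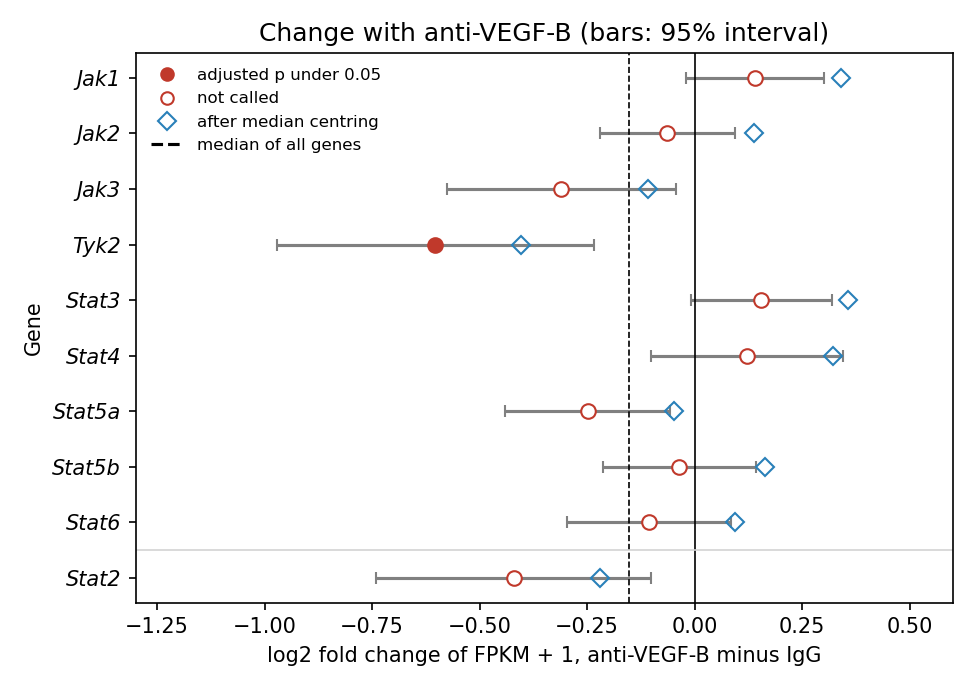
Log2 fold change of FPKM + 1 between anti–VEGF-B and IgG for the 9 genes and for Stat2, with the interval (95%) from limma as a bar and the value after median centring as a diamond. Tyk2 (-0.60) was lower at an adjusted p under 0.05, and the dashed line marks the median of all genes tested at -0.15.

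In shares within a family and ratios within a library, any factor by which a whole library is scaled cancels. The summed FPKM of the 4 JAK kinases was 188.2 ± 10.1 in anti–VEGF-B and 196.8 ± 13.1 in IgG libraries (SD, n = 3 each, two-sided exact permutation p = 0.5). Jak1 made up 34.6% to 35.4% of this sum with anti–VEGF-B and 28.8% to 31.3% with IgG. The share of Jak3 was 20.9% ± 1.75 against 24.9% ± 1.57 with IgG, and that of Tyk2 was 0.843% ± 0.0743 against 1.51% ± 0.404 (SD, n = 3 each). Shares of Jak1, Jak3 and Tyk2 did not overlap between the groups. Each had an exact permutation p of 0.1, the smallest that 3 against 3 libraries allow. By level, the groups overlapped for Jak3, and 49.0% of all genes tested lay apart. How often shares of other genes lie apart was not taken, so this is not read as a result about the kinases. Jak2 held 43.3% of the sum in both groups (exact permutation p = 1.0). These shares are of transcripts and add up to the whole, so a higher share of Jak1 comes with a lower share of others.

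Among the 5 STAT genes the sum was 277.5 ± 7.21 FPKM in anti–VEGF-B and 272.1 ± 14.8 in IgG libraries (SD, n = 3 each, exact permutation p = 0.6). Stat3 made up 46.8% to 48.9% with anti–VEGF-B and 42.3% to 46.2% with IgG. Stat5a made up 7.54% to 8.03% and 8.94% to 9.90%, and Stat6 15.9% in each anti–VEGF-B library and 16.4% to 18.5% with IgG. For these 3 genes the groups lay apart (exact permutation p = 0.1 each, the smallest possible). They overlapped for Stat4 (exact permutation p = 0.4) and Stat5b (exact permutation p = 0.2). By level, the groups overlapped for Stat6, and 49.0% of all genes tested lay apart. Shares of other genes were not compared here either, so no result about the STATs is read from this.

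**Figure D3:**
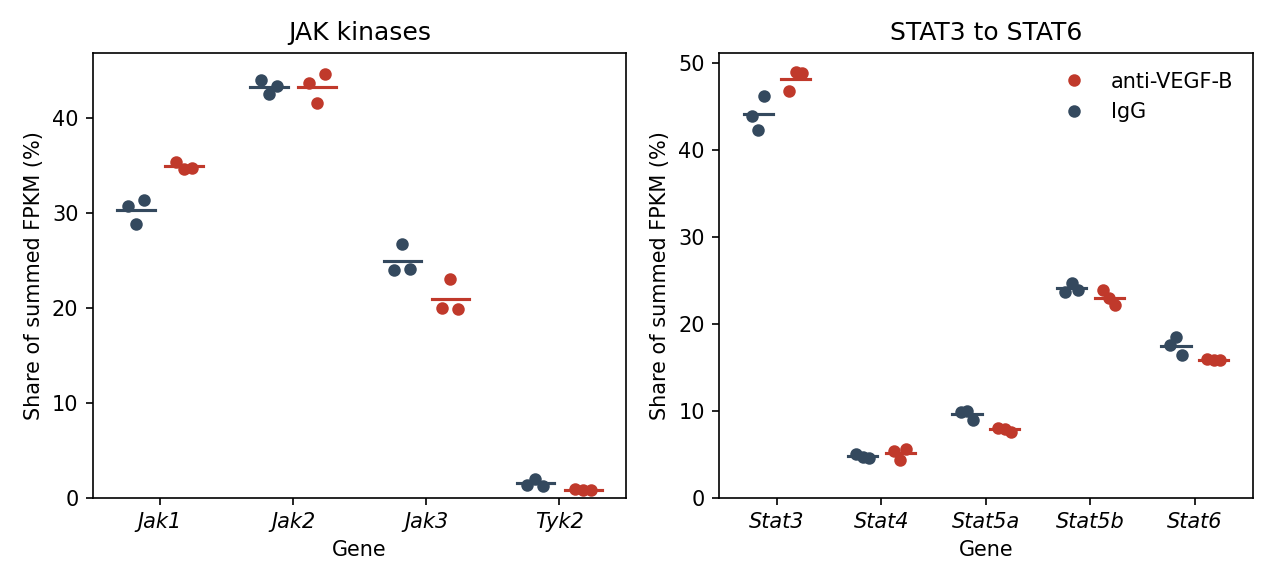
Share, in percent, of each gene in the summed FPKM of the 4 JAK kinases and of the 5 STAT genes, with 1 point for each library and the mean of each group of 3 as a bar. All anti–VEGF-B points lay above all IgG points for Jak1 and Stat3, and below them for Jak3, Tyk2, Stat5a and Stat6.

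The balance between kinases of a receptor and between STATs was compared as 4 ratios within libraries. Jak1 over Jak3, the kinases of the IL-2 receptor, was 0.74 ± 0.13 on the log2 scale with anti–VEGF-B and 0.28 ± 0.15 on that scale with IgG (SD, n = 3 each), higher by a factor of 1.37. Jak2 over Tyk2, the kinases of the IL-12 receptor, was 47.8 to 58.2 with anti–VEGF-B and 21.5 to 35.3 with IgG, higher by a factor of 1.76. Stat5a over Stat5b was 0.336 to 0.345 with anti–VEGF-B and 0.374 to 0.419 with IgG, a ratio of 0.857 between the groups. Reads assigned to the wrong paralog would alter this ratio. Stat3 over the sum of Stat5a and Stat5b was 1.47 to 1.65 with anti–VEGF-B and 1.22 to 1.41 with IgG, higher by a factor of 1.19. Each of the 4 ratios lay apart between the groups with an exact permutation p of 0.1 (two-sided, 0.1 adjusted over the 4 ratios). This is the smallest that the design can give, so a threshold of 0.05 could not be reached. Of all genes tested, 49.0% lay apart by level. The share of other gene pairs with ratios apart was not taken, so the count is not read as a result about these genes. Without IgG replicate 2 the log2 difference of Jak2 over Tyk2 was 0.59, against 0.81 with all libraries, and that of Jak1 over Jak3 was 0.37 against 0.46.

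Several of these genes are neighbors on their chromosomes. Stat5b, Stat5a and Stat3 lie side by side on chromosome 11, with 8626 bases and no other RefSeq gene between Stat5b and Stat5a. The 3′ ends of Stat5a and Stat3 overlap by 72 bases on opposite strands in the coordinates of the table. The libraries were stranded, but whether strand was used in quantification is not given in the sources used here, and reads from these 72 bases could have been counted for either gene. Across the 3 neighbors the log2 fold changes were -0.04 for Stat5b, -0.25 for Stat5a and 0.16 for Stat3.

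STAT2 and IRF9 are partners in the response to type I interferon, whose receptor chain IFNAR1 binds TYK2. Irf9 fell (-0.58, limma adjusted p = 0.0130), a call lost when anti–VEGF-B replicate 3 was left out (0.0515). The value of -0.42 for Stat2 did not pass (limma adjusted p = 0.0521). It passed in 2 of the 12 alternatives in which it was tested, without IgG replicate 1 (-0.57, limma adjusted p = 0.0135) and with a replicate block (0.0421).

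Many receptors, ligands, inhibitors and targets of the pathway were lower with anti–VEGF-B. Other genes of the pathway were gathered in 10 lists, written from general knowledge but with earlier results of these data known. Of 106 such genes, 89 were in the table and 83 were tested. Among these, 37 (44.6%) were lower and 6 were higher at a limma adjusted p under 0.05, beside 23.8% and 4.87% of all genes tested. Their median log2 fold change was -0.30, and the same shares of all genes stand behind the counts for each list. The difference between these genes and the 9 kinases and STATs was not tested. Without anti–VEGF-B replicate 3 the counts were 19 lower and 1 higher, without anti–VEGF-B replicate 2 they were 28 and 3, after median centring they were 22 and 13, and with no moderation of the variance 0 genes passed in either direction.

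The receptor subunits that share the common γ chain include the 3 chains of the IL-2 receptor. Of 7 tested, 4 were lower (Il2rg, Il2ra, Il21r and Il7r) and 0 higher, with a median of -0.32. The γ chain itself, Il2rg, to which JAK3 binds, was at 32.3, 32.1 and 31.7 FPKM with anti–VEGF-B and at 46.2, 59.4 and 49.4 FPKM with IgG (log2 fold change -0.67, limma adjusted p = 0.00496). The α chain Il2ra, which raises affinity for IL-2, was at 65.7, 57.5 and 51.8 FPKM against 94.9, 149.7 and 106.2 FPKM (-0.97, limma adjusted p = 0.00664). The groups lay far apart for both chains. The β chain Il2rb, to which JAK1 binds, was at 417.6, 414.9 and 395.1 FPKM with anti–VEGF-B and at 366.1, 404.3 and 383.2 with IgG, which overlapped (0.09, limma adjusted p = 0.365). Il21r, the specific chain of the IL-21 receptor, had a log2 fold change of -0.97 (limma adjusted p = 0.00756). Il7r, the IL-7 receptor α chain, was the least firm of the 4 calls, at -0.32 (limma adjusted p = 0.0460). It passed in 2 of 13 alternatives, and was lost without any single library other than IgG replicate 1, with a limma adjusted p of up to 0.122 without IgG replicate 2.

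Of 15 other JAK-coupled receptor subunits tested, 7 were lower and 1, Crlf2 (the TSLP receptor), was higher, with a median of -0.20. The number lower was 3 without anti–VEGF-B replicate 3 or after median centring, and 4 without anti–VEGF-B replicate 2 or IgG replicate 2. The lowest p-values belonged to Il6ra, the IL-6 receptor (log2 fold change -0.68), Il27ra, a chain of the IL-27 receptor (-0.64), and Il10ra, a chain of the IL-10 receptor (-0.81), with limma adjusted p-values of 0.00711, 0.00714 and 0.0120. Of the IL-12 receptor chains, Il12rb1, the partner of TYK2, fell from 45.9 ± 10.1 to 29.4 ± 4.73 FPKM (SD, n = 3 each, limma adjusted p = 0.0222). This call on Il12rb1 was lost without IgG replicate 2 (limma adjusted p = 0.0560) or anti–VEGF-B replicate 3 (0.0714), and after median centring (0.0509). That on Crlf2 was lost without IgG replicate 3 (limma adjusted p = 0.0527) or anti–VEGF-B replicate 3 (0.0566). Neither passed with no moderation of the variance (limma adjusted p = 0.1355 for Il12rb1 and 0.0824 for Crlf2). Il12rb2, the partner of JAK2, was at 50.0 ± 5.86 FPKM with IgG and at 46.7 ± 2.68 FPKM when VEGF-B was neutralized (limma adjusted p = 0.472). Il12rb1, Il7r and Crlf2 were named after their values were seen.

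Of 11 cytokine ligands tested, 7 were lower and 1 was higher, with a median of -0.50. Lif, Osm and Il21 had the lowest p-values. Lif, a cytokine of the IL-6 family, fell from 12.0 ± 3.69 to 3.91 ± 0.309 FPKM and Osm, of the same family, from 4.50 ± 1.77 to 1.19 ± 0.269 FPKM. Il21, a growth factor for B cells and Th17 cells, was at 2.70 ± 0.581 FPKM with IgG and 0.961 ± 0.156 FPKM when VEGF-B was neutralized. The gene called higher was Il2, the growth factor of activated T cells, at 1.33, 1.77 and 1.42 FPKM with anti–VEGF-B against 0.801, 0.583 and 0.292 FPKM with IgG. Il21 and Il2 each averaged under 1 FPKM in the group where they were lower and passed the filter through the other group, so their calls carry less weight. Il2 was no longer tested when any anti–VEGF-B library was left out, and it was named after its values were seen.

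Inhibitors of the pathway comprise the SOCS proteins, which block or degrade JAKs and receptors, phosphatases, PIAS proteins and adaptors. Of 21 tested, 10 were lower and 2 higher, with a median of -0.32. The number lower was 5 after median centring, 6 when IgG replicate 2 was left out and 3 when anti–VEGF-B replicate 3 was. Sh2b3, an adaptor that restrains JAK signaling, fell from 4.94 ± 0.753 to 2.36 ± 0.175 FPKM (log2 fold change -0.82, limma adjusted p = 0.00491). Socs1 (-0.96) and Socs2 (-0.96) fell as well, with limma adjusted p-values of 0.00714 and 0.00685. The higher genes were Ptpn2, a phosphatase of JAK1 and JAK3 (0.34), and Cblb, a ubiquitin ligase (0.32), with limma adjusted p-values of 0.0273 and 0.0215. Neither passed without IgG replicate 2 (0.0687 and 0.0599), anti–VEGF-B replicate 2 (0.0510 and 0.0611) or anti–VEGF-B replicate 3 (0.0939 and 0.0792), and Ptpn2 also not without anti–VEGF-B replicate 1 (0.0575). Both were named after their values were seen.

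Target genes of the STATs were listed for each factor, and 37 is the count over all lists with each gene taken once, since the lists share members. Of 16 STAT5 targets tested, 9 were lower and 1, Pim2, was higher, with a median of -0.58. Pim1, a survival kinase, fell from 164.3 ± 16.4 to 101.5 ± 10.1 FPKM (log2 fold change -0.69), whereas Pim2, its paralog, rose from 129.6 ± 6.29 to 180.1 ± 13.3 FPKM (0.47), with limma adjusted p-values of 0.00491 and 0.00714. Pim2 was named after its value was seen. Of 7 STAT6 targets tested, 4 were lower and 0 higher (median -0.44), among them the Th2 cytokines Il13 (-1.29) and Il4 (-0.73), with limma adjusted p-values of 0.00685 and 0.0138.

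Of 8 STAT3 targets tested, 3 were lower, among them Il21 (-0.91) and Socs3 (-0.55), and 1 was higher, with a median of -0.17. The higher gene was Hif1a, the transcription factor of the hypoxia response, at 216.7, 208.4 and 227.0 FPKM with anti–VEGF-B and at 163.4, 153.6 and 184.5 FPKM with IgG (0.38, limma adjusted p = 0.0139). The groups did not overlap. Without anti–VEGF-B replicate 3, Hif1a (limma adjusted p = 0.0584) and Socs3 (0.0566) no longer passed. Of the STAT4 targets 3 were tested and 0 passed in either direction by limma, also at an unadjusted p under 0.05. Ifng had a log2 fold change of -0.19, Il12rb2 of -0.09 and Tbx21, the regulator of Th1 cells, of -0.03. The sign of these 3 values turned after median centring. Ifng averaged 1.02 FPKM with anti–VEGF-B and 1.34 FPKM with IgG, close to the filter, where log2(FPKM + 1) understates a change. Among 6 cofactors, Ep300, a histone acetyltransferase that STATs recruit, was lower (-0.30, limma adjusted p = 0.0475), and the other 5 did not pass. Ep300 kept its call in 4 of 13 alternatives and lost it without IgG replicate 2 or 3 or anti–VEGF-B replicate 1 or 3 (limma adjusted p = 0.115 to 0.161).

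**Figure D4:**
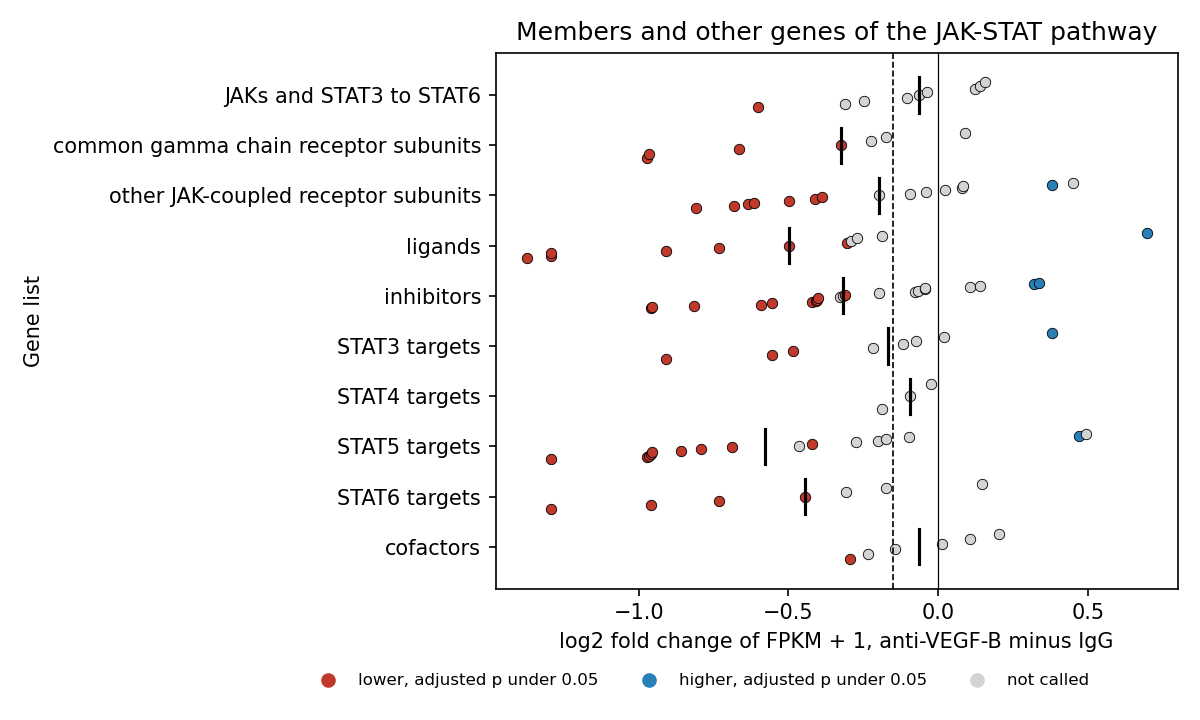
Log2 fold change of FPKM + 1 between anti–VEGF-B and IgG for the 9 kinases and STATs (first row) and for the tested genes of 9 pathway lists, with 1 point for each gene, the median of each row as a vertical bar and the median of all genes as a dashed line. The medians ran from -0.58 for the STAT5 targets to -0.06 for the kinases and STATs.

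The libraries were checked for the labelled cell type and for others. All 7 markers of CD4+ T cells were expressed, with summed FPKM of 486.4 to 519.8 with anti–VEGF-B and 481.1 to 542.0 with IgG. Of these, Cd3e (-0.51) and Cd5 (-0.38) were lower by limma, a call that neither kept without IgG replicate 2 or without anti–VEGF-B replicate 2 or 3, nor Cd5 without IgG replicate 3. Both calls were also lost after median centring (limma adjusted p = 0.0631 for Cd3e and 0.197 for Cd5) and with no moderation of the variance (0.112 and 0.143). Of 6 myeloid markers 4 were listed, with sums of 11.5 to 12.5 with anti–VEGF-B and 12.7 to 30.3 with IgG. The sum was highest in IgG replicate 3. Csf1r was below the filter and not tested, and 0 of the other listed markers were called. Without IgG replicate 3 the log2 fold change of Tyk2 was -0.71 and that of Stat3 was 0.18. The CD8 marker Cd8a was at most at 0.182 FPKM, Cd8b1 was at 2.27 to 4.51 FPKM, and the 1 B cell marker and the single NK and dendritic cell markers listed had sums of at most 1.34 FPKM. IgG replicate 2 deviated from its group by a median of 0.11 on the log2 scale, more than the other libraries (-0.07 to 0.04). The part of these differences between libraries in the results was not tested. In bulk RNA, fewer cells of a type and less RNA per cell cannot be told apart.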

How the data were processed

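Total RNA of 6 samples was sequenced from stranded libraries. The authors aligned the reads to GRCm38 (mm10) with hisat2, used StringTie and Ballgown for quantification and deposited a table of 10995 protein-coding genes. Its name calls these deposited values raw data and the study's methods speak of raw counts, but they are not whole numbers and were taken to be FPKM, the output of these tools, which the file itself does not state. No scaling between libraries and no filter behind this set of genes is stated. The depth is unknown, since at most 0.935% of genes under 0.3 FPKM shared a ratio in a pair of libraries (tolerance 0.0001), so no count model was run.

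The 8816 genes averaging 1 FPKM or more were tested as log2(FPKM + 1) with limma 3.58.1 in R 4.3.3 (empirical Bayes with trend, no covariate, Benjamini-Hochberg over these genes), after a test on simulated data. Ratios within libraries were compared by two-sided exact permutation tests. Neighbors were found in RefSeq (GRCm38.p6), where all 9 genes matched. The 13 alternatives changed scaling, filter, pseudocount, moderation, block and libraries. The genes and lists were chosen with earlier results of these data known. Named were the 9 genes, Stat2, the IL-2 receptor chains and the gene with the most similar profile to each of the 9. From each list the 3 genes with the lowest p were named, but of the cofactors Ep300 alone. Il7r, Crlf2, Il12rb1, Il2, Ptpn2, Cblb and Pim2 were named after their values were seen. A gene of the lists that was tested and counted is not reported here.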

Additional observations from a re-analysis of the deposited data

How the results depend on the processing

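With 3 libraries a group the exact tests could not go below 0.1, and FPKM give no depth, so low genes such as Tyk2 carry an unknown counting error. Of the 9 kinases and STATs, the number lower was 0 with a mean of at least 5 FPKM (where Tyk2 is not tested), median centring, quantile normalization or no moderation, and 0 to 1 when each library was left out in turn. The number higher was 2 after median centring and 0 with any library left out. Over all genes, the number lower was 989 with a mean of at least 5 FPKM, 807 after median centring, 913 after quantile normalization, 6 with no moderation and 702 to 2074 with a library left out. The number higher was 1365 after median centring, 880 after quantile normalization, 6 with no moderation and 163 to 395 with a library left out. Of the pathway genes, 22 were lower with a mean of at least 5 FPKM, 22 after median centring, 0 with no moderation and 19 to 40 with a library left out. Of them 13 were higher after median centring, 0 with no moderation and 1 to 7 with a library left out. Log2 fold changes turned in sign after median centring for Jak2 (0.14), Stat5b (0.17), Stat6 (0.10), Ifng (0.014), Il12rb2 (0.11) and Tbx21 (0.18), after quantile normalization for Tbx21 (0.10), and with a library left out for Stat5b (-0.085 to 0.023), Ifng (-0.33 to 0.007) and Tbx21 (-0.13 to 0.11, and 0.01 without anti–VEGF-B replicate 2). The cause was not tested, except that centring shifts all genes upward by construction. The 4 ratios kept their direction under every alternative run. With a library left out the direction could not have turned, since each ratio lay apart between the groups. The log2 differences with a library left out were 0.37 to 0.53 for Jak1 over Jak3 and 0.59 to 0.95 for Jak2 over Tyk2. They were 0.20 to 0.30 for Stat3 over Stat5a and Stat5b, and -0.27 to -0.18 for Stat5a over Stat5b.

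Same-numbered libraries of the groups deviated together with correlations of -0.03, 0.11 and 0.09, so the numbers were not taken to pair the samples. With a replicate block, 3 of the 9 genes were lower, namely Tyk2, Jak3 (limma adjusted p = 0.0174) and Stat5a (0.0401), and 0 were higher. Of all 8816 genes tested, 2109 were lower and 469 higher with this block.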

Other observations

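The genes with the profile nearest to each kinase or STAT were found by the root mean square distance of log2(FPKM + 1), centred on its mean over the 6 libraries. They are given as a description. For the JAK kinases these were Nub1 for Jak1 (distance 0.0157), Sept6 for Jak2 (0.0181), Insl3 for Jak3 (0.0207) and Stoml1 for Tyk2 (0.0286). Stoml1, at 0.705 FPKM with anti–VEGF-B and 1.61 FPKM with IgG on average, had a log2 fold change of -0.58, and it passed the filter of 1 FPKM through the IgG group, where it is high. For the STATs they were Ppp2r3a for Stat3 (0.0261), Ppdpf for Stat4 (0.0283), Itpkc for Stat5a (0.0188), Vps41 for Stat5b (0.0129) and Lrig2 for Stat6 (0.0218). None of these 8 other genes passed the test by limma, with log2 fold changes from -0.32 for Insl3 to 0.16 for Ppp2r3a.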
